A study of Mus musculus with 32 samples.

Results

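Of 32 lymphomas from Eµ-myc mice, 3 had far more RNA of interferon-induced genes than the other 29. They are the tumours numbered D2, D10 and D24 in the labels. They were chosen from these same arrays, by the levels of interferon-induced genes such as Ifit1 and Cxcl10, and not by any label. Every value that sets the 3 against the other 29 is therefore a description, given with no test. The only test reported is a limma fit within the other 29 tumours. Their interferon gene levels entered the choice as the values below the gap. D2 and D24 were also rich in T cell transcripts and D10 was not, so genes raised in all 3 tumours are told apart from genes raised in D2 and D24 only.

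All 32 tumours carried the Eµ-myc transgene, which places Myc under an enhancer of the immunoglobulin heavy chain locus and so expresses this oncogene in B lineage cells. The labels form 1 group, with no tumour-free control and no named treatment. Strain and age are not stated. RNA came from flash-frozen tumour tissue or from pelleted cells after dissociation, and which of these applied to a given tumour is not stated. Each tumour was measured once, on 1 Affymetrix Mouse430_2 array, so a value of D2, D10 or D24 has no replicate and the error of a single tumour is unknown.

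Interferons are secreted proteins that warn cells of infection. Type I interferons (alpha and beta) can be made by nearly every cell, while interferon gamma comes mainly from T cells and natural killer cells. Both kinds bind their own receptors and switch on overlapping sets of genes through Jak kinases and Stat and Irf transcription factors. Factors of the Stat and Irf families bind a promoter motif called the interferon-stimulated response element (ISRE). Interferon gamma acts largely through Stat dimers on the gamma-activated site (GAS), and it is the stronger inducer of the large GTPases, of antigen presentation and of Cxcl9. In a lymphoma sample such genes can be expressed by the tumour cells or by T cells, macrophages and other cells between them.

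The promoters of 4 genes raised in all 3 tumours are shown because they carry ISRE matches, with that of Cd3g, raised in D2 and D24 only, for comparison. Each line gives the 250 bases before the start in RefSeq, build GRCm38.p6, 5′ to 3′ on the gene's strand. Capitals mark matches, on either strand, to the ISRE motif (GAAA, any 2 bases, then GAAA) or the GAS motif (TTCNNNGAA).
Ifit1, chr19:34640639-34640888, plus strand: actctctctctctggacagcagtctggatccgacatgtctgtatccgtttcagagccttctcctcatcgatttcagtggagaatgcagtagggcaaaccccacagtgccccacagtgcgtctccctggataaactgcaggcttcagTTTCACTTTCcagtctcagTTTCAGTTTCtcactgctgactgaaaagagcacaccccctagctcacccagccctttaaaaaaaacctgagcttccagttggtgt
Oas1a, chr5:120907526-120907775, minus strand: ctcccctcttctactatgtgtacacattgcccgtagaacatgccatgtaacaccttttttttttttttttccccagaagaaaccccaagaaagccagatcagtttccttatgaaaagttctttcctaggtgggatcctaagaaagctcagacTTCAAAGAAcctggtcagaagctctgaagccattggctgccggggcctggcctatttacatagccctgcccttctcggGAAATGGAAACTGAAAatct
Bst2, chr8:71537473-71537722, minus strand: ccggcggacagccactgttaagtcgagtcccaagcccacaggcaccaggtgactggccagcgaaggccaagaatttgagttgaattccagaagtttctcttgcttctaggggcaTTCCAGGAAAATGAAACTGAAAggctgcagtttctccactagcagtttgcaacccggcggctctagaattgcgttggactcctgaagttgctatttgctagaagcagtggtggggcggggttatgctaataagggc
Cxcl10, chr5:92348890-92349139, minus strand: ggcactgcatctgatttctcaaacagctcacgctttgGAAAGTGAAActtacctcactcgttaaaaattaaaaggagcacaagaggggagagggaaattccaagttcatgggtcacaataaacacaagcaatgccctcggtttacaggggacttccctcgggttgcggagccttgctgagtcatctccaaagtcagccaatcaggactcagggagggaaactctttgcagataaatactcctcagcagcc
Cd3g, chr9:44980432-44980681, minus strand: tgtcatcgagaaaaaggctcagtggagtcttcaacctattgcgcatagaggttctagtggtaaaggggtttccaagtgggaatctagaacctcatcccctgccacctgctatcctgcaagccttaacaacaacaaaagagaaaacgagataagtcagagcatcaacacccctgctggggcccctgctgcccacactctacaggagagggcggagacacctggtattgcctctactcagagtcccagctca

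Ifit1 had 2 ISRE matches, on the reverse strand, starting 104 and 85 bases before the transcription start. Oas1a had 2 overlapping matches, 20 and 14 bases before it, and 1 GAS match 98 bases before it. Bst2 had 2 overlapping ISRE matches at 130 and 124 bases, with a GAS match at 136 bases that runs into them. Cxcl10 had 1 ISRE match, 213 bases before the start. The Cd3g promoter held neither motif, which says only that these letters are not in that stretch.

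The values are log2 expression levels, so a difference of 1 is 2-fold. They were taken relative to the median of the other 29 tumours, over 11227 genes that passed a filter on dim probe sets. D2 and D24 stood apart from the other arrays over all probe sets. Their mean correlation with the other arrays was 0.957 and 0.955, below the lowest of the 29 (0.961), while D10 at 0.980 was among the highest. RNA quality, read from the array controls for Gapdh and Actb as 3′ signal minus 5′ signal, was unremarkable in all 3, at 0.36 in D2, 0.42 in D10 and 0.32 in D24 against 0.26 to 0.96 in the 29. The median difference over all tested genes was -0.04 in D2, 0.01 in D10 and -0.10 in D24. Raised by at least 1 were 802 genes in D2 (7.14% of those tested), 185 in D10 (1.65%) and 891 in D24 (7.94%). Lowered by at least 1 were 425 in D2 (3.79%), 49 in D10 (0.436%) and 367 in D24 (3.27%), so D10 was much closer to the ordinary tumour than the other two.

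B lineage markers were expressed in all 3 tumours, and some of them were low in D2 or D24. Of 12 tested genes shared by B cell stages, 2 were lowered by at least 1 in D2, 0 in D10 and 5 in D24. Raised by at least 1 were 1 in D2, 1 in D10 and 2 in D24. The median difference was 0.13, -0.09 and -0.46. The mean level ranked 17th of the 32 in D2, 14th in D10 and 32nd in D24. The genes given next were low in D2 or D24 and do not stand for the whole list. Cd79a, a signalling chain of the B cell receptor, was at 9.37 in D2, 11.07 in D10 and 9.61 in D24, against 10.64 to 11.63 in the 29. Its partner Cd79b was at 11.26, 12.27 and 11.11, against 11.58 to 12.63. D2 and D24 were below all of the 29 in both genes and D10 was within their range. Ebf1, a transcription factor that fixes B cell identity, was at 6.24 in D24, below the lowest of the 29 (8.37), and at 9.25 and 9.29 in D2 and D10, close to the median of 9.35. In bulk RNA, fewer cells of a type and less RNA per cell cannot be told apart.

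The 7 interferon-induced genes used as a scale here (Ifit1, Ifit3, Usp18, Irf7, Rtp4, Oas1a and Rsad2) were on average 2.97 above the median in D2, 2.61 in D10 and 2.08 in D24. The next tumours were D25 at 1.13, D4 at 1.08 and D1 at 0.83. Ifit1, which encodes a protein that binds foreign RNA, was at 9.04 in D2, 9.08 in D10 and 8.20 in D24, with a median of 5.55 in the 29 and a highest value of 7.06 in D4. Cxcl10, a chemokine that draws activated T cells, was at 9.62, 9.09 and 11.30, with a median of 6.03 and a highest value of 7.49 in D8. Neither gene overlapped between the 3 tumours and the 29. D24 was the lowest of the 3 in Ifit1 and the highest in Cxcl10.

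**Figure D1:**
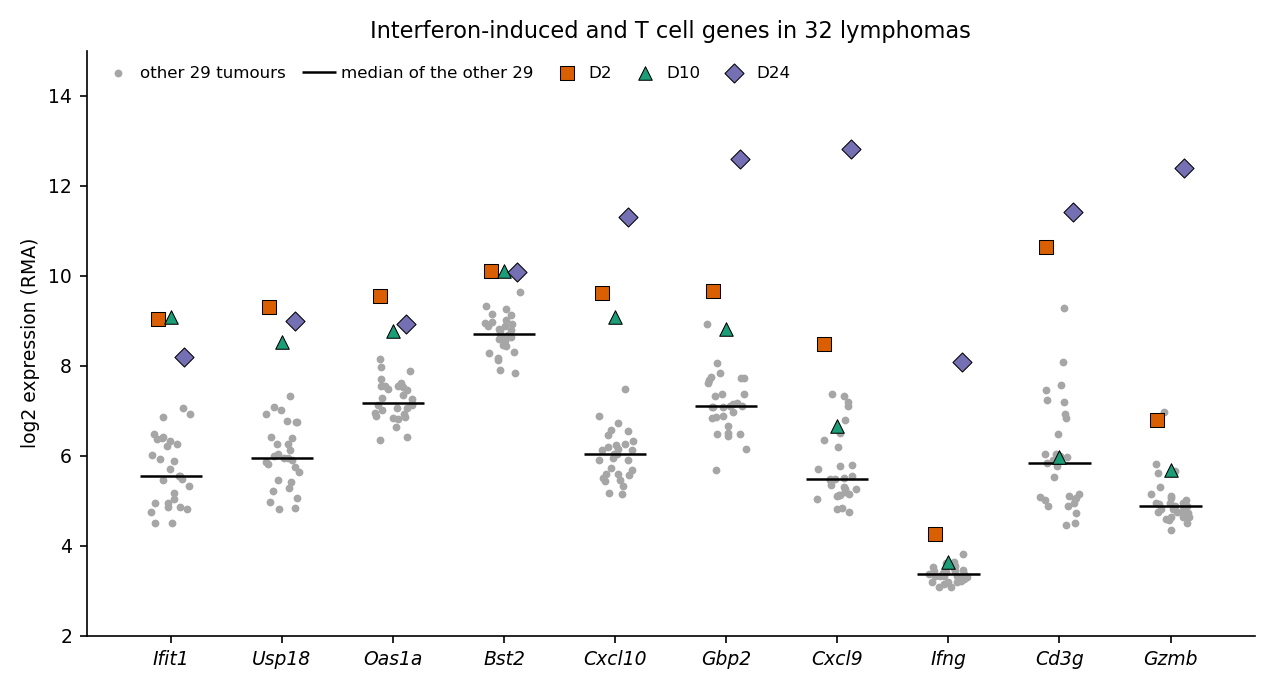
Log2 expression (vertical axis) of 10 genes in each of the 32 tumours; squares, triangles and diamonds are D2, D10 and D24, grey points the other 29, and the line their median. For Ifit1, Usp18, Oas1a, Bst2 and Cxcl10 all 3 tumours lie above the 29, whereas for Cd3g only D2 (10.64) and D24 (11.41) do and D10 (5.97) sits near the median of 5.84, and Cxcl9, Ifng and Gzmb are by far highest in D24.

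In all 3 tumours, 78 genes were raised at least 2-fold (0.695% of the 11227). Of these, 31 were among the 100 tested genes of the interferon lists (transducers, feedback inhibitors, nucleic acid sensors, antiviral effectors, GTPases, the Ifi200 family and class I processing). Most were antiviral effectors (19, such as Ifit1, Oas1a and Bst2) or GTPases (7), and the transcription factor Irf7 was the only transducer. The lists of the Ifi200 family (3 tested genes) and of class I processing (13 tested genes) had 0. Ifi213, given below, was raised in all 3 but is not on the Ifi200 list, so this 0 does not cover the whole family. Others of the 78 came from phagocyte genes, among them Fcgr4, Cd5l and Clec4n. Without the size threshold, the lowest of the 3 tumours exceeded all of the 29 in 74 genes (0.659%), of which 33 were in the interferon lists, and the highest of the 3 was below all of the 29 in 21 genes (0.187%). Of the 78, 30 were also above all of the 29.

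Because the 3 tumours were chosen for these genes, their counts describe the choice and support nothing. The filter used the mean of all 32 tumours. On the mean of the 29, 4 of the 78, among them Ifit1 and Cxcl9, would have missed it, against 56 of all 11227. The count of 78 depended on the inclusion of D10. Without D10, 495 genes were raised in both D2 and D24, against 94 without D24 and 100 without D2. All remaining tumours of the 3 were above the 29 in 538 genes without D10, 118 without D2 and 97 without D24.

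No interferon gene itself passed the filter on dim probe sets, so ligands are given as values of dim probe sets. Ifng, which encodes interferon gamma, was at 8.08 in D24, at 4.25 in D2 and at 3.64 in D10, against 3.07 to 3.81 in the 29. D24 thus stood 4.72 above the median, against a level near background in the 29, D2 was 0.89 above it and D10 was within the range of the 29. The type I genes did not stand out. Ifnb1 was at 4.88 in D2, 4.97 in D10 and 4.66 in D24 against a median of 5.06, and Ifna4 at 5.23, 5.15 and 5.35 against 5.21. Differences for the 8 measured type I ligand genes ran from -0.40 to 0.14. These probe sets are dim, so low levels of the ligands may not be readable on the array.

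Of 5 tested receptor genes, 0 were raised in all 3. Ifnar2, a chain of the type I receptor, was at 8.99 in D2, 8.42 in D10 and 9.42 in D24, with a median of 8.18 and a highest value of 9.41 among the 29. Il10rb, shared by the receptors of interleukin 10 and type III interferons, was at 8.72, 8.93 and 9.51 against a highest value of 8.78. In each of the 5 genes D24 had the highest level of the 3, as it had in 2946 of all 11227 genes, and 2 of the 5 were raised by at least 1 there.

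Among 10 signal transducers, Irf7 was raised in all 3. This transcription factor is itself induced by interferon and amplifies the type I response. It was at 10.34 in D2, 8.70 in D10 and 9.44 in D24, above the highest of the 29 (7.73, in D4), with a median of 6.43. Irf9 and Stat2, both part of the complex that binds the ISRE, had all 3 tumours above the 29 by smaller margins. Irf9 was at 8.33, 8.80 and 9.05 against a highest value of 8.13, and Stat2 at 6.404, 6.204 and 6.248 against 6.197. With 1 array per tumour, the Stat2 margin of D10 cannot be told from error. Irf1, a factor strongly induced by interferon gamma, was raised by 3.24 in D24 and by 1.196 in D2, and stood 0.58 above the median in D10. Jak2, a kinase of the gamma receptor, was raised by 1.81 in D2 and 2.04 in D24 and not in D10 (-0.07).

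Of 4 feedback inhibitors, 2 were raised in all 3. Usp18, which blocks the type I receptor and removes Isg15 from proteins, was at 9.30 in D2, 8.53 in D10 and 8.999 in D24, against a median of 5.95 and a highest value of 7.33. The 3 tumours lay within 1 log2 unit of each other and did not overlap with the 29. Socs3, an inhibitor of Jak signalling, was at 8.87, 8.25 and 9.45, with a median of 6.90 and 8.86 in D30, so D10 overlapped with the 29. Socs1 was raised by 2.10 in D24, with 0.69 in D2 and 0.08 in D10.

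Among 13 nucleic acid sensors and adaptors, Ifih1 and Dhx58 were raised in all 3. Both encode relatives of the cytoplasmic RNA sensor Ddx58. Ifih1 was at 9.07 in D2, 8.41 in D10 and 9.39 in D24, against a highest value of 7.73. Dhx58 was nearly the same in the 3 tumours (8.02, 7.95 and 8.04, against a highest value of 7.32). Ddx58 was above all of the 29 in each of the 3, with differences of 0.90, 0.69 and 1.47. Zbp1, a sensor of Z-form nucleic acid, was raised in D2 (1.77) and D24 (2.56) and stood 0.86 above the median in D10. The adaptor Mavs (differences of -0.03, 0.32 and 0.01) and the endosomal receptor gene Tlr9 (0.04, -0.01 and -0.15) stayed near the median, so the differences were not shared by all sensor genes.

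The antiviral effectors were the part of the response with the most even levels in the 3 tumours. Of 48 tested, 19 were raised in all 3, and the median difference of the list was 1.16 in D2, 1.10 in D10 and 1.24 in D24. Its mean level was 8.99, 9.04 and 9.09, above the highest of the 29 (8.35, in D4). Rtp4, an interferon-induced inhibitor of viral replication, was at 10.34, 10.14 and 9.79, with a median of 7.78. Oas1a, which makes the oligoadenylate that activates RNase L, was at 9.54, 8.77 and 8.92, with a median of 7.17. Bst2, which tethers virus particles to the cell surface, was at 10.10, 10.11 and 10.07, against 7.84 to 9.64 in the 29. In these 3 genes all of the 29 lay below the 3 tumours.

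Phf11d (differences of 1.94, 2.35 and 2.12), Ifit2 (1.87, 2.11 and 1.96), Xaf1 (1.70, 1.78 and 1.59), Ifitm3 (1.82, 1.59 and 1.80), Parp12 (1.81, 1.78 and 2.58) and Trim30a (1.62, 1.67 and 2.04) were similarly even, and each was above all of the 29 in the 3 tumours. Ifitm3 encodes a membrane protein that blocks virus entry, and Trim30a a regulator of innate signalling.

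Some effectors were higher in D10 than in D24. Of the 48, 4 were higher in D10 by at least 1 and 6 were higher in D24 by at least 1, against 490 and 747 of all 11227 genes. Ifit3 was at 9.14 in D2 and 9.41 in D10 but at 7.63 in D24, below the highest of the 29 (7.86, in D25). Rsad2, whose product makes a chain-terminating nucleotide, was at 10.79 and 11.37 in D2 and D10 and at 9.27 in D24, with 9.86 in D25. Slfn4, a gene of the Schlafen family, was at 9.73 in D10, against 7.34 in D2, 6.78 in D24 and at most 7.83 in the 29. Cmpk2, an interferon-induced nucleotide kinase, was at 9.33 in D10, against 7.12 and 7.74 in D2 and D24 and at most 7.83 in the 29. For Slfn4 and Cmpk2, D10 alone stood above all other tumours. In the other direction, Isg20, an RNA-degrading nuclease, was raised by 3.30 in D24 and 2.34 in D2, and stood 0.95 above the median in D10.

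The interferon-induced GTPases showed the opposite order, with D24 far above the other tumours. These proteins coat the vacuoles in which intracellular pathogens live. Of 9 tested, 7 were raised in all 3, with a median difference of 1.88 in D2, 1.18 in D10 and 4.001 in D24. In 9 of 9, D24 was at least 1 above both D2 and D10. Over all 11227 genes D24 was that far above D2 in 484 and above D10 in 747. Gbp2 was at 9.67 in D2, 8.82 in D10 and 12.61 in D24, with a median of 7.10 and a highest value of 8.93 in D25. Iigp1 was at 9.91, 9.15 and 12.48, with a median of 6.79 and a highest value of 8.44. Gbp6 was at 9.33, 7.78 and 11.76, with a median of 5.96. D25, which is not among the 3, had a higher mean GTPase level (9.14) than D10 (8.97), so D10 ranked 4th of the 32 on this list.

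Class I antigen processing was raised mainly in D24. Of its 13 tested genes, 11 were raised by at least 1 in D24, 2 in D2 and 1 in D10, and 0 were raised in all 3. The median difference was 1.30 in D24, 0.86 in D2 and 0.33 in D10. Psmb8, a catalytic subunit of the immunoproteasome, was at 12.53 in D24, 12.09 in D2 and 11.88 in D10, all above the highest of the 29 (11.53). Tap2, a subunit of the peptide transporter, was also above all of the 29 (10.19, 9.49 and 9.09, against 9.02). Nlrc5, the transactivator of class I genes, was raised by 2.57 in D24, with 0.60 in D2 and 0.33 in D10.

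Among 13 tested chemokine genes, 5 were raised in all 3 (Cxcl9, Cxcl10, Cxcl13, Ccl2 and Ccl12). Cxcl9, a ligand of the chemokine receptor Cxcr3 that interferon gamma induces, was at 12.81 in D24, 8.48 in D2 and 6.65 in D10, against a median of 5.47 and a highest value of 7.36. D24 was far above all other tumours, whereas D10 was within the range of the 29, whose median is at the level of dim probe sets. Ccl12, which attracts monocytes, was more even, at 8.60 in D2, 8.40 in D10 and 9.37 in D24, with a median of 5.79 and a highest value of 8.55 in D18. Cxcl13, which draws B cells through Cxcr5, was at 9.09, 10.25 and 13.10, and D2 and D10 overlapped with the 29, which reached 11.004. Ccl5, a product of activated T cells and other cells, was raised in D24 (5.34) and D2 (2.997) but not in D10 (0.23).

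**Figure D2:**
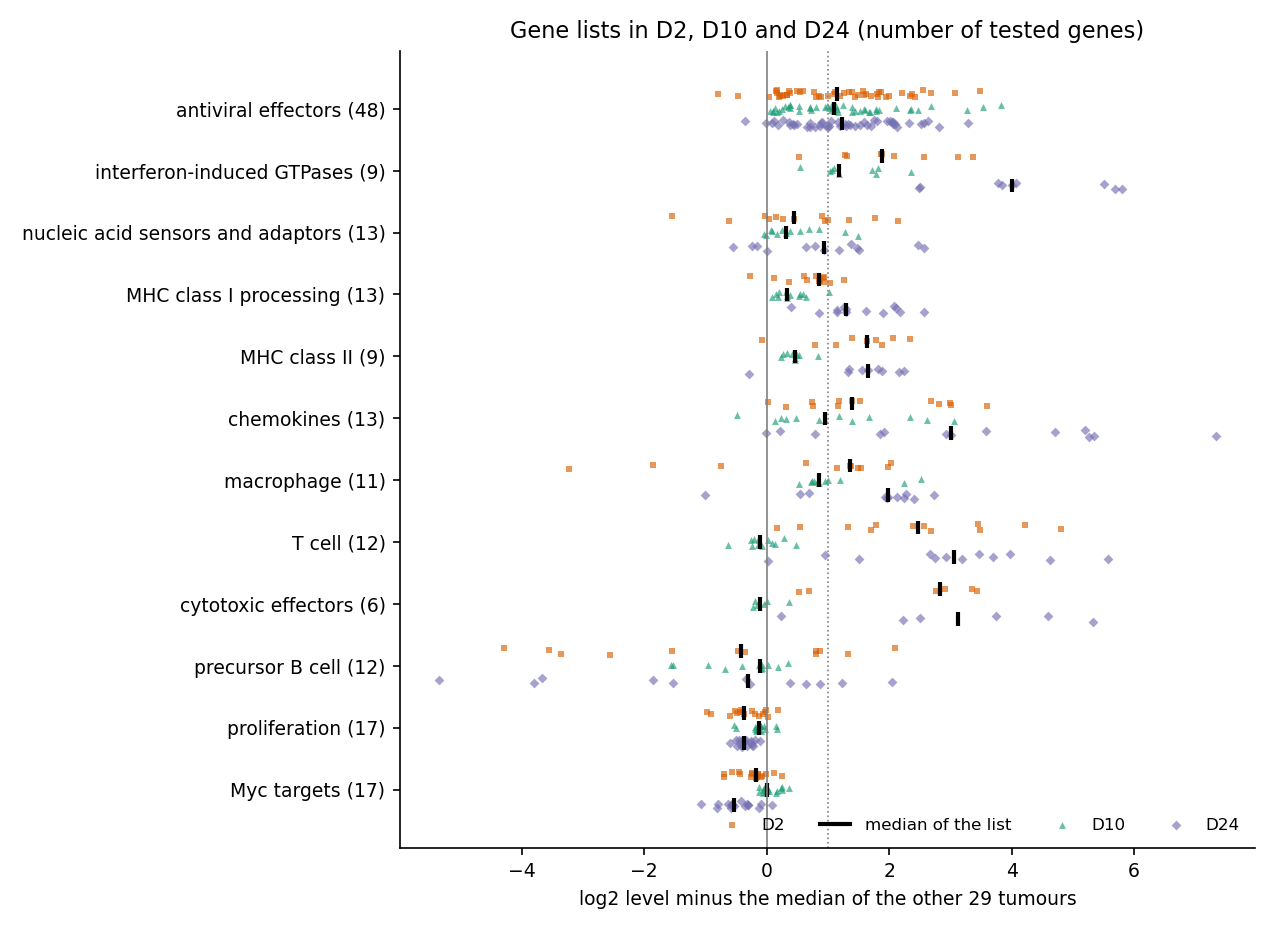
Difference of each tested gene from the median of the other 29 tumours (horizontal axis, log2) for 12 gene lists in D2 (squares), D10 (triangles) and D24 (diamonds); black bars are list medians and the dotted line marks a 2-fold increase. Antiviral effectors have medians of 1.16, 1.10 and 1.24, GTPases reach 4.001 in D24, and T cell genes have medians of 2.48 in D2 and 3.06 in D24 against -0.11 in D10.

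Genes of macrophages and other phagocytes moved with the 3 tumours to a varying degree. Of 11 tested macrophage genes, Fcgr1 and C1qb were raised in all 3. Fcgr1, a high-affinity antibody receptor that interferon also induces, was at 8.10 in D2, 9.24 in D10 and 8.71 in D24, with a median of 6.72 and a highest value of 8.71 in D25. C1qb, a complement subunit made by macrophages, was at 12.04, 11.69 and 12.62, within the range of the 29, which reached 12.89. The mean level of the 11 genes was 9.50 in D2, 10.10 in D10 and 10.61 in D24, within the 8.05 to 10.78 of the 29. D24, D10 and D2 ranked 2nd, 3rd and 7th, behind D30. Csf1r, the receptor that macrophages need to survive, was at 12.02 in D2, 10.51 in D10 and 12.25 in D24, against 8.89 to 11.77. Mrc1 and Adgre1, both markers of tissue macrophages, went the other way in D2, at 5.27 and 5.96 against medians of 8.51 and 7.81. The part of macrophages in the raised genes was not tested.

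Other phagocyte genes among the 78 included Fcgr4 (differences of 2.09, 1.95 and 3.48), another antibody receptor, and Cd5l, a secreted macrophage protein at 9.71, 10.79 and 11.06 in D2, D10 and D24 (median 7.79). The genes Ms4a6d (2.02, 1.90 and 2.37), Ms4a4c (3.29, 1.88 and 2.95) and Tlr1 (1.65, 1.63 and 2.19), a receptor for bacterial lipopeptides, were also raised. Of these 5 genes, the 3 tumours were above all of the 29 only in Ms4a4c. Jchain, which joins secreted antibody chains, was raised by 6.30 in D2, 2.05 in D10 and 4.52 in D24, but the 29 ran from 3.31 to 11.82, so D10 at 8.68 and D24 at 11.16 were within their range. Ifi213, Ifit1bl1, Trim30d, Irgm2 and Slfn2, all of interferon-induced families, completed the 25 most raised genes, with the lowest of the 3 between 1.68 and 1.89 above the median except for Ifi213 (2.31).

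Beyond the genes above, 305 genes (2.72% of those tested) were raised at least 2-fold in D2 and in D24 and stood less than 0.5 above the median in D10. A further 112 genes were raised in D2 and D24 and lay between 0.5 and 1 in D10. A filter on the mean of the 29 would have dropped 18 of the 305, against 56 of all 11227. Of the 305, 16 were in the lists of T cell, helper and cytotoxic genes, with Cd3g as the most raised of all. The class also held class II antigen presentation genes, costimulatory receptors and receptors of mature B cells such as Fcmr and Cxcr5. Some interferon-linked genes were in it too, among them Jak2, Epsti1 and Ubd, a ubiquitin-like protein gene that D24 had at 12.42, D2 at 8.79 and D10 at 5.81 (median 5.62).

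**Figure D3:**
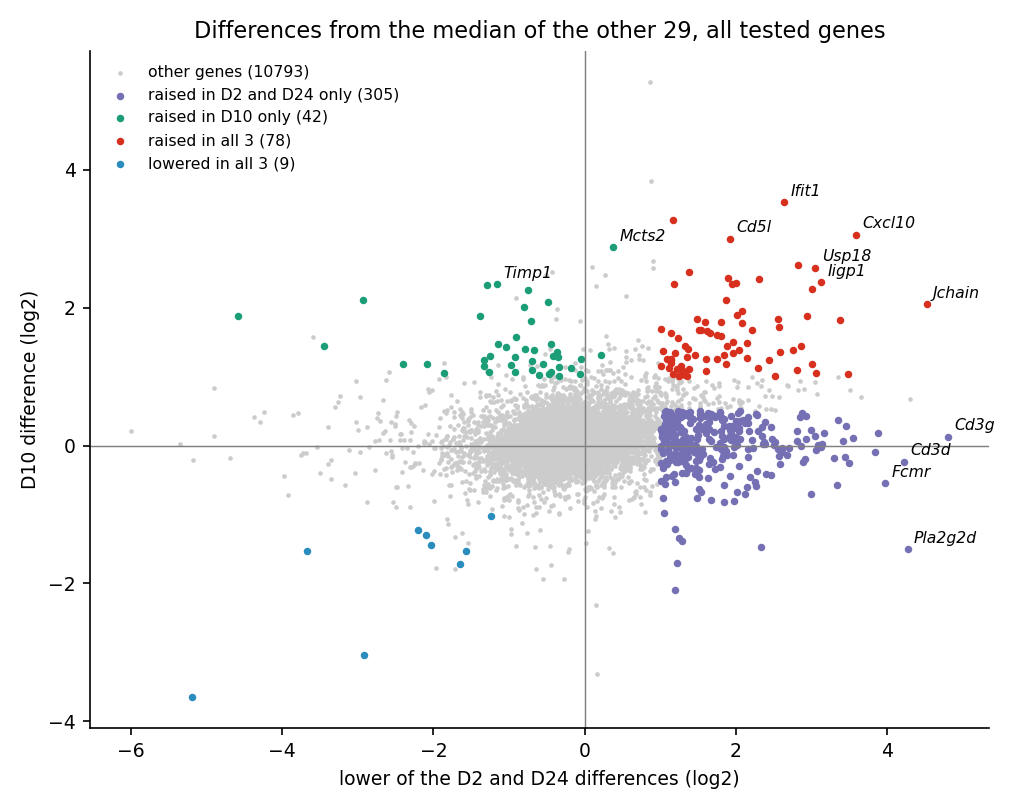
Each point is one of the 11227 genes, with the lower of its D2 and D24 differences from the median of the other 29 on the horizontal axis and its D10 difference on the vertical axis (log2). The 78 genes raised in all 3 fan out at the upper right from Ifit1 and Cxcl10, the 305 genes raised in D2 and D24 only lie along the horizontal axis out to Cd3g and Cd3d, and 42 genes were raised in D10 only.

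T cell genes separated D2 and D24 from D10. These 2 tumours were set apart for their T cell transcripts on the same arrays. Counts of T cell genes in the class raised in D2 and D24 only therefore describe that choice and support nothing. Of 12 tested, 10 were raised in D2 and D24 only and 0 in all 3, and the median difference was 2.48 in D2, -0.11 in D10 and 3.06 in D24. Cd3g, a chain of the complex that signals for the T cell receptor, was at 10.64 in D2 and 11.41 in D24. D10 was at 5.97, next to the median of 5.84, and the highest of the 29 was D9 at 9.29. Cd3d was at 10.67, 6.21 and 11.07 in D2, D10 and D24, with a median of 6.45 and 9.55 in D9. Trbv1, a variable segment of the T cell receptor, was at 9.87, 6.17 and 11.10, with a median of 5.99. Bcl11b, the transcription factor that commits cells to the T lineage, was at 9.22, 6.05 and 9.47, with a median of 5.77 and 9.12 in D9. Over the 4 T cell genes used as a scale (Cd3d, Cd3e, Cd3g and Cd6), D24 was 4.04 and D2 3.30 above the median, D9 came next at 2.33, and D10 ranked 18th of 32 at 0.10. D9 shared the T cell transcripts without the interferon level, since it was at 0.64 on the 7 interferon-induced genes and ranked 8th.

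Both coreceptors were high in D2 and D24. Cd4, found on helper T cells and some macrophages, was at 8.94 in D2 and 8.76 in D24 against 6.61 in D10 and at most 8.59 in the 29. Cd8b1, found on cytotoxic T cells, had a dim probe set and stood at 8.501, 7.91 and 4.89 in the same order, with 7.25 in D9 as the highest of the 29.

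Of 6 tested cytotoxic genes, 4 were raised in D2 and D24 only. Nkg7, a protein of killer cell granules, was at 8.89 in D2, 5.91 in D10 and 10.88 in D24, with at most 7.03 in the 29. Eomes, a transcription factor of cytotoxic T and natural killer cells, was at 9.30 in D2 and 10.46 in D24, with D10 near the median (-0.16) and at most 6.91 in the 29. In both genes D2 and D24 stood above all other tumours. Gzmb, the granule protease granzyme B, had a dim probe set and was at 12.39 in D24, 6.79 in D2 and 5.68 in D10, with a median of 4.88 and a highest value of 6.97 in D25. D24 alone stood apart in Gzmb, and the perforin gene Prf1 was likewise raised in D24 (2.23) more than in D2 (0.70). Ncr1, a receptor of natural killer cells, was dim and at its median in all 3 (-0.02, 0.07 and 0.00).

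Receptors of the T cell response followed. Cxcr3, the receptor for Cxcl9 and Cxcl10, was at 8.43 in D2, 6.05 in D10 and 9.89 in D24, with at most 6.70 in the 29. D10, with Cxcl10 at 9.09, thus had the ligand without a raised receptor level. Of 8 tested checkpoint and costimulation genes, Icos, Tnfrsf4, Tnfrsf9 and Tnfrsf18 were raised in D2 and D24 only. Cd274, the PD-L1 ligand that interferon gamma induces, was at 10.26 in D24, 8.27 in D2 and 7.19 in D10, with at most 7.79 in the 29. The dim probe sets of Pdcd1 and Lag3, receptors that restrain activated T cells, showed the pattern of the T cell genes. Pdcd1 was 2.65 above the median in D2, 2.81 in D24 and at it in D10 (0.00), and Lag3 was 3.20, 3.65 and -0.01 in the same order. Lgals9 was below the median in D2 (-1.99) and D24 (-1.59), with -0.37 in D10.

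Class II presentation genes, which are expressed by B cells, dendritic cells and macrophages and induced by interferon gamma, were raised in D2 and D24 only in 6 of 9 cases. H2-Aa was at 13.16 in D2, 12.49 in D10 and 13.37 in D24, with a median of 12.03, and Ciita, the transactivator of these genes, at 9.39, 7.75 and 9.16, with a median of 7.51. H2-Aa was higher in D2 and D24 than in all of the 29, which reached 12.97. For Ciita the 29 reached 9.29, below D2 but above D24. Itgax, an integrin of dendritic cells, was at 8.55, 6.11 and 9.85, with at most 7.65 in the 29.

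Some precursor B cell genes were low in D2 and D24 and not in D10. Of 12 tested, 5 were lowered and 2 raised by at least 1 in each of D2 and D24, and 2 were lowered in D10. The list medians were -0.41, -0.11 and -0.30 in D2, D10 and D24. Rag1, which cuts immunoglobulin genes in precursor B cells, was at 3.40 in D2 and 3.90 in D24, near the lowest of the 29 (3.38), and at 8.04 in D10, near their median of 7.70. Vpreb3, a precursor B cell gene, was at 7.87 and 5.88 in D2 and D24, below all of the 29 (9.78 to 12.16), and at 11.25 in D10. Cd93, a receptor of immature B cells, was likewise below all of the 29 in D2 (7.16) and D24 (7.86) and not in D10 (9.64). Fcmr, the receptor for antibodies of the IgM class, was at 11.09, 6.57 and 11.64 in D2, D10 and D24, with a median of 7.12. Cxcr5, a homing receptor of follicles, was at 8.93, 5.02 and 9.87, with a median of 5.60. Ms4a1, which encodes the mature B cell antigen CD20, was raised in all 3 (differences of 2.55, 1.504 and 1.96). Germinal centre genes were highest in D2, where Bcl6, the repressor that directs that stage, stood 5.06 above the median, against 1.61 in D24 and 0.32 in D10. These differences in B cell genes lie in the same 2 tumours as the T cell genes, and the parts of the 2 in the 305 genes cannot be told apart.

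Most other genes among the 20 most raised in D2 and D24 only belonged to none of the lists. Pla2g2d, a secreted phospholipase, was at 11.29 in D2 and 11.73 in D24 but at 5.51 in D10, next to the lowest of the 29 (5.49). Dnase1l3, a secreted nuclease, was raised by 3.84 and 5.31 and stood at -0.09 in D10. Gimap4, a GTPase of lymphocyte survival, was raised by 3.55 and 5.10, with 0.11 in D10. Clu, a secreted chaperone, and S1pr3, a receptor for sphingosine phosphate, were raised by 3.40 and 3.12 and by 3.09 and 3.41, with D10 at -0.03 and 0.01. Some of these genes were as high in single tumours of the 29. Hivep3 reached 9.95 in D15, above D2 (9.07) and D24 (8.60), and the adhesion gene Dsc3 reached 10.10 in D6, above D2 (9.43) and D24 (8.55). The remaining 4 of the 20, Bcar3, Zfp982, Tent5c and Hmgn3, were raised by 3.05 to 4.11.

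D10 alone had 42 raised genes (0.374% of those tested). They were a mixed set. Of the 100 tested genes of the interferon lists, 0 were among them, which is close to the share over all genes and says nothing about those lists. Slfn4 and Cmpk2, in which D10 alone stood above all other tumours, are not in this class. A filter on the mean of the 29 would have dropped 3 of the 42, against 56 of all 11227. Mcts2, an imprinted translation factor gene, was at 8.72 in D10, against 6.25 in D2, 6.22 in D24 and a median of 5.84, but D7 reached 9.10. Timp1, an inhibitor of matrix proteases, was at 9.38 in D10, against 5.88, 6.87 and a median of 7.04, and exceeded all of the 29 (at most 8.56). F13a1, a clotting factor subunit made by macrophages, was at 9.43, just above the highest of the 29 (9.33). Mgp, Dnah8, 1700097N02Rik, Cdkn1c and Lingo3 were raised by 2.01 to 2.33 and were each exceeded by at least 1 of the 29. Of 7 tested neutrophil genes, Ngp, Camp, Ltf and Mpo were lowered by at least 1 in D10 (-1.93, -1.54, -1.74 and -1.21), although Lcn2, an iron-binding protein of granules and inflamed tissue, was raised by 2.59. The mean level of the 7 genes in D10, 6.96, ranked 21st and lay within the 5.36 to 9.98 of the 29.

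Lowered at least 2-fold in all 3 tumours were 9 genes (0.0802% of those tested). Kcnk1, a potassium channel gene, was at 4.32 in D2, 5.86 in D10 and 4.82 in D24, with a median of 9.51, although the lowest of the 29 was at 4.33. Sox4, a transcription factor of precursor B cells, was at 7.77, 9.79 and 7.64, with a median of 11.32, and only D2 and D24 were below the lowest of the 29 (8.53). Tnfrsf19, a receptor of the tumour necrosis factor family, was at 3.98, 3.86 and 5.397, with a median of 6.90. The other 6 genes were Uchl1, Arvcf, Krt10, Lmtk2, 2810025M15Rik and Myl4, the last named after its values were seen. Without D10 157 genes were lowered in both others, and without D2 14. None of the 9 had all 3 tumours below all of the 29.

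Myc itself, the transgene, was at 9.81 in D2, 11.37 in D10 and 10.55 in D24, against 10.39 to 12.29 in the 29, so D2 was below their range. Whether this probe set tells the transgene from the endogenous gene was not tested. Growth genes differed little from the median in size. Most proliferation genes lay below it in all 3 tumours, with 2 of 17 above it in D2, 2 in D10 and 0 in D24. Most Myc target genes lay below it in D2 and D24, with 2 and 1 of 17 above it, against 9 in D10. Of 17 tested proliferation genes, 0 were raised or lowered by at least 1 in any of the 3, with medians of -0.37 in D2, -0.13 in D10 and -0.37 in D24. Of 17 Myc target genes, 1 was lowered, Polr1b in D24 (-1.08), and the list medians were -0.18, 0.01 and -0.53.

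Markers of other cells did not all move with the 3 tumours. Among plasmacytoid dendritic cell markers, Siglech (differences of 0.24, -0.30 and 0.04) and Ccr9 (-0.04, -0.11 and 0.01) were dim and near the median. The 5 tested genes of that list had a higher mean level in D24 (9.25) than in all of the 29 (at most 9.21), with Ly6d (3.002) and Lair1 (2.59), which other cells express too, raised there. Lair1 was also raised in D2 (2.01). Stroma genes had a mean level of 9.19 in D2, 9.43 in D10 and 9.38 in D24, against 8.05 to 11.32, and endothelial genes were within the range of the 29 as well (6.89, 7.24 and 6.98, against 6.41 to 8.03). Salivary gland transcripts, which mark 11 of the 29 tumours, were low in all 3, with Bpifa2 at 4.001, 3.87 and 3.67 and the 11 above 9.

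The promoters of the 2 classes differed in ISRE content. The 3 tumours were chosen for interferon-induced genes, so this difference goes with the choice and is no separate support. Of the 78 genes raised in all 3, 59 had an entry in the RefSeq promoter table used, which runs from 250 bases before to 50 after each start, and 20 of these (33.9%) had at least 1 ISRE match on either strand. The share was 7.66% (18 of 235) for genes raised in D2 and D24 only, 2.86% (1 of 35) for D10 only, 3.73% (340 of 9115) for all tested genes and 3.99% for all genes in the table. Of the interferon-induced GTPases 6 of 7 had a match, and of the tested T cell genes 0 of 8. A GAS match was found in 18.6% of the genes raised in all 3, 14.5% of those raised in D2 and D24 only, 0 of the 35 in D10 only and 8.13% of all tested genes. Motifs could overlap, and a match is a description of the letters and not of a bound site. Chromosome 18 was left out of this count.

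The classes were then followed in the other 29 tumours. A limma model was fitted to all 11227 genes there, with the mean standardised level of the 7 interferon-induced genes and that of the 4 T cell genes as 2 axes, each scaled to an SD of 1. A slope is the log2 change of a gene for 1 SD of an axis, at a fixed value of the other. The p-values were adjusted over all genes by Benjamini-Hochberg, the threshold was 0.05, and genes that define an axis were left out of its counts. The p-values measure the spread between these tumours only. It was known beforehand that interferon-induced genes move together over all 32 tumours.

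On the interferon axis 11 of 11220 genes rose (0.098%) and 0 fell (0%; 212 fell at an unadjusted p under 0.05). Of the 11, 9 were among the 72 genes raised in all 3 that could be counted (12.5%), 1 was among the 305 raised in D2 and D24 only (Sema4a), and the other was Zbp1. A slope above 0 was found for 94.4% of the 72, 71.1% of the 305, 73.8% of the 42 genes raised in D10 only and 50.4% of all genes. Of the 72, 41 rose at an unadjusted p under 0.05, against 36 of the 305 and 567 of the 11220. Ifih1 had a slope of 0.33 ± 0.04 (SE, limma adjusted p = 1.9e-05), Dhx58 of 0.25 ± 0.03 (limma adjusted p = 3.9e-05) and Parp12 of 0.50 ± 0.07 (limma adjusted p = 0.00023). Cxcl10 is among the 9, but it marked the choice of the tumours and supports nothing here. Most of the 9 are in the interferon lists, and the axis is made of interferon-induced genes. Their rise is therefore no separate support for the class raised in all 3. Clec4a3, a lectin of phagocytes, had one of 0.65 ± 0.09 (limma adjusted p = 0.000137). Ifit2, Xaf1, Phf11d and Ifitm3 also rose.

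Of the genes that were highest in D24, some were called on this axis (Ifih1, Dhx58, Clec4a3, Parp12 and Cxcl10) and several were not. Iigp1 had a slope of 0.47 ± 0.10 (limma adjusted p = 0.0502), Gbp6 of 0.31 ± 0.07 (limma adjusted p = 0.098) and Gbp2 of 0.39 ± 0.10 (limma adjusted p = 0.12). Of the 9 GTPases 0 rose, and of 13 class I genes 0 rose. Phagocyte genes other than Clec4a3 were not called either, among them Fcgr4 (0.40 ± 0.17, limma adjusted p = 0.597) and Cd5l (-0.06 ± 0.24, limma adjusted p = 0.998). Misses of this kind do not show that the genes did not follow the axis. When D9 was left out, Iigp1 and the phagocyte gene Fcgr1 were called.

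All calls on the interferon axis were lost when the 11 tumours with salivary transcripts were left out. In the remaining 18 tumours limma called 0 genes, with 452 rising and 372 falling at an unadjusted p under 0.05, and 28 of the 72 genes raised in all 3 rose at that level. For Ifih1 the highest adjusted p over 38 alternatives was 0.158, in those 18 tumours, and it passed in the other 37. Single tumours also moved the count of 11, which became 24 without D1, 18 without D8, 17 without D22 and 29 without D30.

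On the T cell axis 61 of 11223 genes rose (0.544%) and 57 fell (0.508%). Of the genes raised in D2 and D24 only, 26 of 301 rose (8.64%) and 0 fell. A slope above 0 was found for 77.4% of the 301, 60.3% of the genes raised in all 3 and 48.4% of all genes. Of those raised in all 3, 1 of 78 rose (Ms4a4c, with a slope of 0.30 and limma adjusted p = 0.0294). Bcl11b had a slope of 0.91 ± 0.07 (SE, limma adjusted p = 2.66e-10) and Trbv1 of 1.14 ± 0.09 (limma adjusted p = 8.95e-10). Trav9d-3, a T cell receptor segment, had one of 0.55 ± 0.04 (limma adjusted p = 3.02e-11) and Ctsw, a protease of cytotoxic cells, one of 0.46 ± 0.04 (limma adjusted p = 3.29e-09). All 4 passed under each of the 38 alternatives in which the fit was made. They are genes of T cells or cytotoxic cells on an axis made of T cell genes. Their rise is therefore no separate support for the class raised in D2 and D24 only. Prkcq and Themis, which act in T cell receptor signalling, had slopes of 0.46 and 0.28. Il2rb, Klrd1, Nkg7, Eomes and Ccl5 rose as well. Ms4a4b, a membrane protein of T cells, rose with a slope of 1.37 and was no member of the class because D10 stood 0.67 above the median. Ccl22, a chemokine of dendritic cells, rose with a slope of 0.29 although it was raised in none of the 3 tumours. Cenpq, Kdm5a, Tprkb and Ufl1 had the most extreme moderated t among the falling genes, with slopes of -0.15, -0.22, -0.30 and -0.29.

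The T cell axis leaned on D9, the tumour with the most T cell RNA of the 29 and the highest Bpifa2 (14.26). D9 also had the highest 3′ minus 5′ difference of the 32 arrays (0.963). Without D9 limma called 15 rising and 4 falling genes in place of 61 and 57. Of the 26 genes raised in D2 and D24 only, 12 rose without D9, namely Bcl11b, Ccl5, Ctsw, Eomes, Il2rb, Klrd1, Nkg7, Prkcq, Sema4a, Themis, Trav9d-3 and Trbv1. The same 12 rose with the 3′ minus 5′ difference as a covariate, which left 15 rising and 2 falling genes in all. In the 18 tumours without salivary transcripts 8 genes rose, 7 of them raised in D2 and D24 only. Without D11 alone, 76 genes were called in both directions together, in place of 118.

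Of the 42 genes raised in D10 only, limma called 0 on either axis, with 8 rising on the interferon axis at an unadjusted p under 0.05 and 2 rising and 2 falling on the T cell axis. Of the 9 genes lowered in all 3, limma also called 0 on either axis, and 0 passed at an unadjusted p under 0.05.

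**Figure D4:**
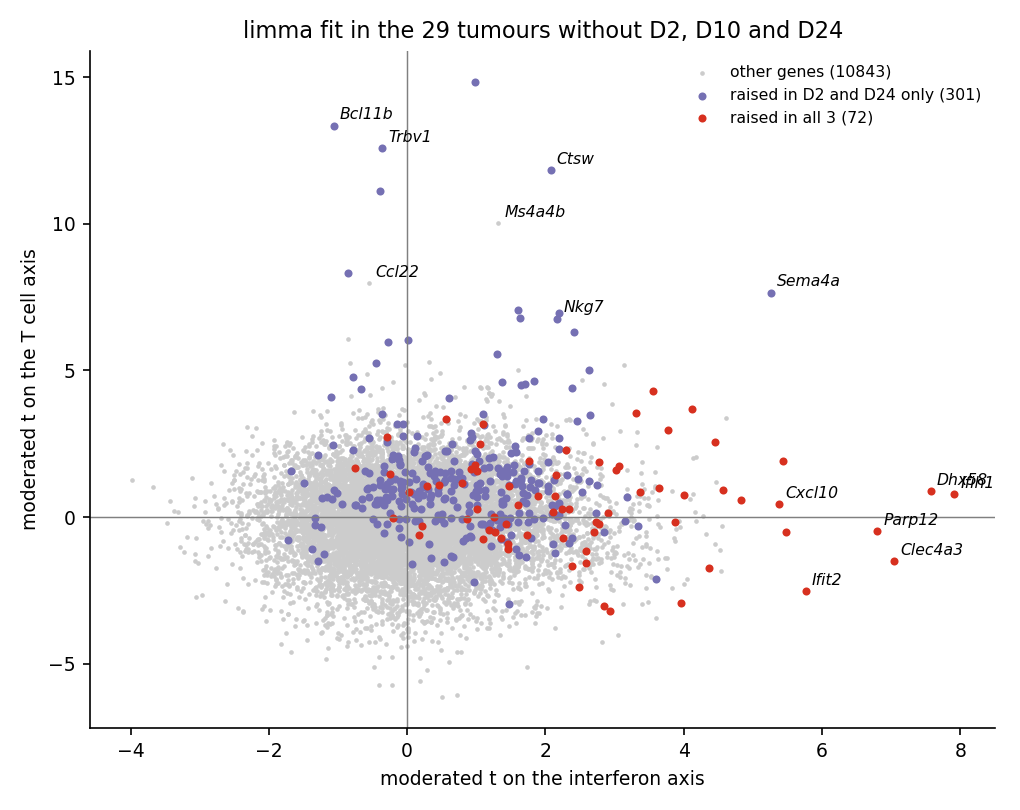
Moderated t of each gene on the interferon axis (horizontal) and the T cell axis (vertical) in the limma fit over the 29 tumours other than D2, D10 and D24, without the genes that define an axis. Genes raised in all 3 tumours extend to the right (Ifih1, Dhx58, Parp12), whereas genes raised in D2 and D24 only extend upward (Bcl11b, Trbv1, Ctsw), and Sema4a is high on both axes.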

How the data were processed

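Total RNA from 32 Eµ-myc lymphomas was hybridised to Mouse430_2 arrays. The deposited values are log2 expression levels for probe sets. The authors computed these log2 levels by RMA with affy, according to the submitters' processing notes. This method gives all arrays 1 distribution and would hide a shift common to most genes. No versions are stated. All 32 columns were mapped by title, and 0 pairs of arrays were identical. Precision is limited by the number of arrays.

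Of 45101 probe sets, 34958 had 1 gene symbol, 932 several and 9211 none in the platform annotation, and RefSeq matched 34754 Entrez identifiers. Probe sets with a mean of at least 5.78, the median of all means, were kept, and the one with the highest mean stood for each of 11227 genes. Of the 78 genes raised in all 3, 21 had several such probe sets, and 12 of these had another that was raised too.

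Raised and lowered mean at least 1 log2 unit from the median of the 29 in each tumour concerned. D2 and D24 only, or D10 only, also means less than 0.5 above it in the others. The tumours, the gene lists, the thresholds and the tests were chosen with earlier results of these data known. Named genes were the 25 most raised in all 3, the 20 in D2 and D24 only, the 8 in D10 only, the 8 most lowered, the 8 rising and 4 falling per axis with the most extreme moderated t, the members of the lists and the genes of the axes.

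Tests used limma 3.58.1 in R 4.3.3, and other steps Python 3.11.15, numpy 2.4.6, pandas 2.3.3, scipy 1.17.1 and matplotlib 3.10.9. The limma step was tested on simulated data for 11227 genes, 200 of them changed. It recovered 93.5% of slopes of 1 gene SD on the interferon axis and 88.5% on the T cell axis, with 6.03% and 5.85% of the calls false. At 0.5 gene SDs it recovered 0% and 1.5%. Alternatives were other probe set, filter, scaling and threshold choices, covariates, ranks, each axis alone, and tumours left out. No batch is named, so none was tested. Some genes of the lists are not reported here.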

Additional observations from a re-analysis of the deposited data

How the results depend on the processing

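All values of D2, D10 and D24 rest on 1 array each, and signal near background limits the dim genes, ligands among them. With no filter on dim probe sets, 71 genes were raised in D10 only, the interferon axis had 21 calls and the T cell axis 259, of which 17 and 2 were raised in all 3, and 52 of the T cell axis calls were raised in D2 and D24 only. With a filter at the 75th percentile, 32 genes were raised in all 3, 92 in D2 and D24 only, 7 in D10 only, 4 were lowered and 33 lay above or beyond the 29. The axis fits could not be made there, since no T cell axis gene was left. At a threshold of 0.6 the counts were 226 raised in all 3, 615 in D2 and D24 only, 200 in D10 only and 37 lowered, and at 1.5 they were 30, 159, 11 and 4. With arrays shifted by reference genes, by -0.14 to 0.12, the interferon axis had 27 calls. With each axis alone there were 27 and 219 calls, 4 of the latter raised in all 3. With ranks of the axis values the T cell axis had 36 calls, 0 raised in all 3 and 17 raised in D2 and D24 only. With the 3′ minus 5′ difference as a covariate these were 17 calls in all and 12. Without the tumours with salivary transcripts 214 genes lay above the rest, the interferon axis had 0 calls (0 raised in all 3 and 0 in D2 and D24 only, with 452 rising at an unadjusted p under 0.05 in limma), and the T cell axis had 8. Of these 8, 6 were raised in D2 and D24 only when that class was also taken against the 18 tumours. The causes were not tested.

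When 1 tumour was left out at a time, the count raised in all 3 ran from 94 to 495, the count above the 29 from 97 to 538 and the count lowered from 12 to 157, with only 2 tumours required each time. The interferon axis ran from 8 to 29 calls and the T cell axis from 19 to 153. Of the interferon axis calls, 6 to 14 were raised in all 3 and 1 to 1 in D2 and D24 only. Of the T cell axis calls, 0 to 2 and 12 to 30 were. These 4 overlaps were chosen for leaving tumours out after seeing the data. No paired analysis was possible because the labels give 1 group and no shared replicate numbers.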

Other observations

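Of the 74 genes with all 3 tumours above the other 29, 44 were raised by less than 1 in at least 1 of the 3. The genes given here were picked after their values were seen and stand for no gene group. Hspa5, a chaperone of the endoplasmic reticulum, was at 12.63 in D2, 12.54 in D10 and 12.87 in D24, against at most 12.31 in the 29. Hsp90b1 was at 12.13, 12.004 and 12.24 against at most 11.86, Calr at 12.56, 12.48 and 12.69 against 12.33, and Pdia3 at 11.54, 11.30 and 11.91 against 11.21. Ctsc, a protease that activates granule enzymes, was at 12.12, 12.20 and 13.53 against at most 11.81, and the proton pump subunit gene Atp6v1b2 at 9.78, 9.78 and 10.03 against at most 9.68. The margins were small beside those of the interferon-induced genes.

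D2 had germinal centre transcripts that the other 31 tumours lacked at that level. The dim probe set of Rgs13, a regulator of G protein signalling in germinal centre B cells, was at 11.93 in D2, against 2.76 in D10, 3.07 in D24 and at most 5.19 in the 29. Cr2, a complement receptor of mature B cells and follicular dendritic cells, was at 10.20 in D2, 3.72 in D10 and 4.45 in D24, with at most 7.20 in the 29.

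Macrophage genes differed in kind between the 3. Vsig4, a receptor of resident macrophages with a dim probe set, was at 6.99 in D10, against 4.07 in D2, 3.85 in D24 and at most 5.39 in the 29. Marco, a scavenger receptor, was at 8.86 in D10 and 9.34 in D24 but at 5.87 in D2. Saa3, an acute phase protein gene, had the greatest difference of any tested gene in D10, at 12.60 there (5.28 above the median), against 8.17 in D2, 11.09 in D24 and at most 11.28 in the 29. These genes were named after their values were seen.

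Of 3230 bright probe sets without a single gene name, 18 (0.557%) were raised in all 3. 1 of them stood 2.65, 2.76 and 2.57 above the median in D2, D10 and D24, with at most 0.86 in the 29.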
